A study of Mus musculus with 12 samples.

Results

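Arc, Egr1, Egr2, Egr3, Egr4, Nr4a1, Nr4a2, Npas4, Ier5 and Dusp1 are immediate early genes that do not encode subunits of AP-1, the transcription factor to which the products of Fosb belong. They were chosen by symbol as the activity-induced immediate early genes outside AP-1, and each matched 1 row of the 37310 genes counted, so that 10 of 37310 genes are described. All 10 passed the filter on low counts in each comparison. The data were TRAP-Seq and input RNA-Seq libraries from vHPC of C57BL/6 mice whose tissue is labelled as hippocampal neurons. Every mouse carried GFP-L10a, a tagged protein of the large ribosomal subunit that is made only after Cre has acted, and every mouse had received retrograde HSV-hEf1α-Cre in NAc 3 weeks earlier. WT mice were non-floxed littermates, and KO mice were FosB fl/fl. Cre came from the vector alone, and input RNA was taken from the whole punch, which can also hold cells that the vector did not reach. TRAP RNA was pulled down on GFP-tagged ribosomes, and input RNA came from the same homogenate. There were 3 WT pools (numbers 1 to 3) and 3 KO pools (numbers 2 to 4), with 3 mice per pool by the labels. Both TRAP and input were sequenced from every pool, which makes 12 libraries, and per-library values are listed below in the order of the pool numbers. The labels name no stimulus, age or sex, so the values below are levels in mice for which no stimulation is recorded.

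Immediate early genes are transcribed shortly after a neuron is stimulated, without new protein synthesis. Calcium that enters through NMDA receptors and voltage-gated channels acts through kinases on factors already bound at these genes, among them CREB, which binds the cAMP response element, and SRF, which binds the CArG box. Arc, the 4 EGR factors and Npas4 are widely used as marks of recent activity in hippocampus, and most of the products are transcription factors that go on to control later genes.

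The libraries held between 3416030 and 5614089 gene counts each. The unit of level is CPM, the counts of a gene set against the scaled (TMM) total of the library, and between genes CPM per kb of exon. Before scaling, 3 counts were worth 0.534 to 0.878 CPM, a floor that covers counting error only, and every member was above it in every library. The smallest counts were 16 for Egr2 and 22 for Npas4, both in input libraries. No 75-base stretch of the members' exons had another place in the genome within 2 mismatches. The only annotated overlap was of Egr1 with Gm17507 on the other strand, which had no counts. Fosb, the targeted gene, had TRAP levels of 39.1 ± 6.65 CPM in WT and 23.2 ± 5.46 CPM in KO (SD, n = 3 pools each). Its input levels were 25.6 ± 4.11 CPM in WT and 15.9 ± 1.11 CPM in KO (SD, n = 3 pools each). No KO library reached the lowest WT library of its kind, but Fosb did not pass the test between genotypes in TRAP (log2 fold change −0.76, Benjamini-Hochberg adjusted p = 0.337 by the quasi-likelihood test of edgeR). Counted over all exons, KO libraries stood at 59.0% of the WT level in TRAP and 62.5% in input. Fosb was thus about as far below WT in the whole punch as on the tagged ribosomes (interaction −0.08, standard error 0.30). The paper describes a floxed allele that loses some exons, so these counts can include reads from the exons that remain. It reports almost no FosB expression in KO mRNA from TRAP, and intact transcript was not measured here. WT input 1 had counts on 15678 genes, against 17255 to 18090 in the other input libraries.

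Promoter sequence was available from RefSeq (GRCm38.p6) for 7 of the 10 genes, in 11 windows that run from 250 bases before to 50 bases after a start of transcription. The stretches shown were chosen because they hold the motifs searched for, which stand in capitals (the TATA box excepted), and because these genes are known to share stimulus-dependent regulation.
Egr2, chr10:67537746-67537830, + strand: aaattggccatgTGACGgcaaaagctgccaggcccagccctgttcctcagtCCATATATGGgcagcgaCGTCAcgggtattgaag
Egr4, chr6:85513682-85513778, − strand: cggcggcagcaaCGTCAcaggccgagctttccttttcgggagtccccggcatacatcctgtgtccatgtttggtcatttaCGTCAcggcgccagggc
Nr4a1, chr15:101266601-101266822, + strand: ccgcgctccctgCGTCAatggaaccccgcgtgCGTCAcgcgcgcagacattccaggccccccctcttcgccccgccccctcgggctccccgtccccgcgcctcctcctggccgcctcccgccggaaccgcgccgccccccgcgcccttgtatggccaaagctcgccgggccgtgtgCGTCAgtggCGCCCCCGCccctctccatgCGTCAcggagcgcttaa
Nr4a2, chr2:57124057-57124215, − strand: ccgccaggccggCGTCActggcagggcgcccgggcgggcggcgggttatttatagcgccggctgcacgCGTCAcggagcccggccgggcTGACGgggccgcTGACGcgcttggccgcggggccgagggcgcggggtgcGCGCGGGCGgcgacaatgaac
Npas4, chr19:4990124-4990162, − strand: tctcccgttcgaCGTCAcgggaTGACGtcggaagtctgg
Dusp1, chr17:26508596-26508675, − strand: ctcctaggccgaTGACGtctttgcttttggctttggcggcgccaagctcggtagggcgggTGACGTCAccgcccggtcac
Motifs were searched on both strands. The core of the cAMP response element, TGACG, was in 8 of the 11 windows and in 6 of the 7 genes, all but Ier5, and in 20.8% of all 32851 RefSeq windows. Of these windows, 3 belong to Egr2, overlap and hold the same pair of cores, so that window counts for Egr2 count the same bases repeatedly. The full element TGACGTCA, which contains the core on each strand, was in the Dusp1 window only and in 1.79% of all windows. The CArG box was in 4 windows, all of Egr2, at 2 distinct places, and in 1.63% of all windows. The site of the EGR factors themselves, GCGNGGGCG, was in the windows of Nr4a1 and Nr4a2 and in 5.55% of all windows. The AP-1 site TGANTCA was in none of the 11 windows and in 7.81% of all windows. The NR4A site AAAGGTCA was likewise in none, against 1.51% of all windows. The letters of the TATA box, TATAAA, were in the Nr4a2 window and in 13.6% of all windows. In Nr4a2 they lay on the strand opposite to the gene, at bases −164 to −159 from the start.

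The members differed more than 10-fold in level per kb, and Egr1 and Egr3 led in all 4 groups. In WT TRAP, Egr1 stood at 104 ± 20.9 CPM per kb (SD, n = 3) and Egr3 at 74.3 ± 15.1 CPM per kb (SD, n = 3), and the libraries of these neighbours in the order overlapped. In the other 3 groups the lowest Egr1 library was above the highest Egr3 library. Arc came next in both TRAP groups, at 51.4 ± 5.19 CPM per kb (SD, n = 3) in WT, and did not overlap with either neighbour there. Nr4a1, Nr4a2 and Egr4 followed in WT TRAP at 35.9, 30.2 and 30.1 CPM per kb, with overlap between each and the next. Ier5 at 16.7 and Dusp1 at 9.97 CPM per kb stood apart from their neighbours in WT TRAP. Egr2 and Npas4 were lowest in every group, at 5.47 and 4.42 CPM per kb in WT TRAP and 1.43 and 3.82 CPM per kb in KO input. In input, Arc was level with Nr4a2 and Nr4a1 in WT, at 26.1, 27.1 and 26.0 CPM per kb, and these 3 overlapped. In KO TRAP, Dusp1 at 11.6 CPM per kb stood before Ier5 at 10.4 CPM per kb, with overlap, the reverse of their order in WT TRAP.

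**Figure D1:**
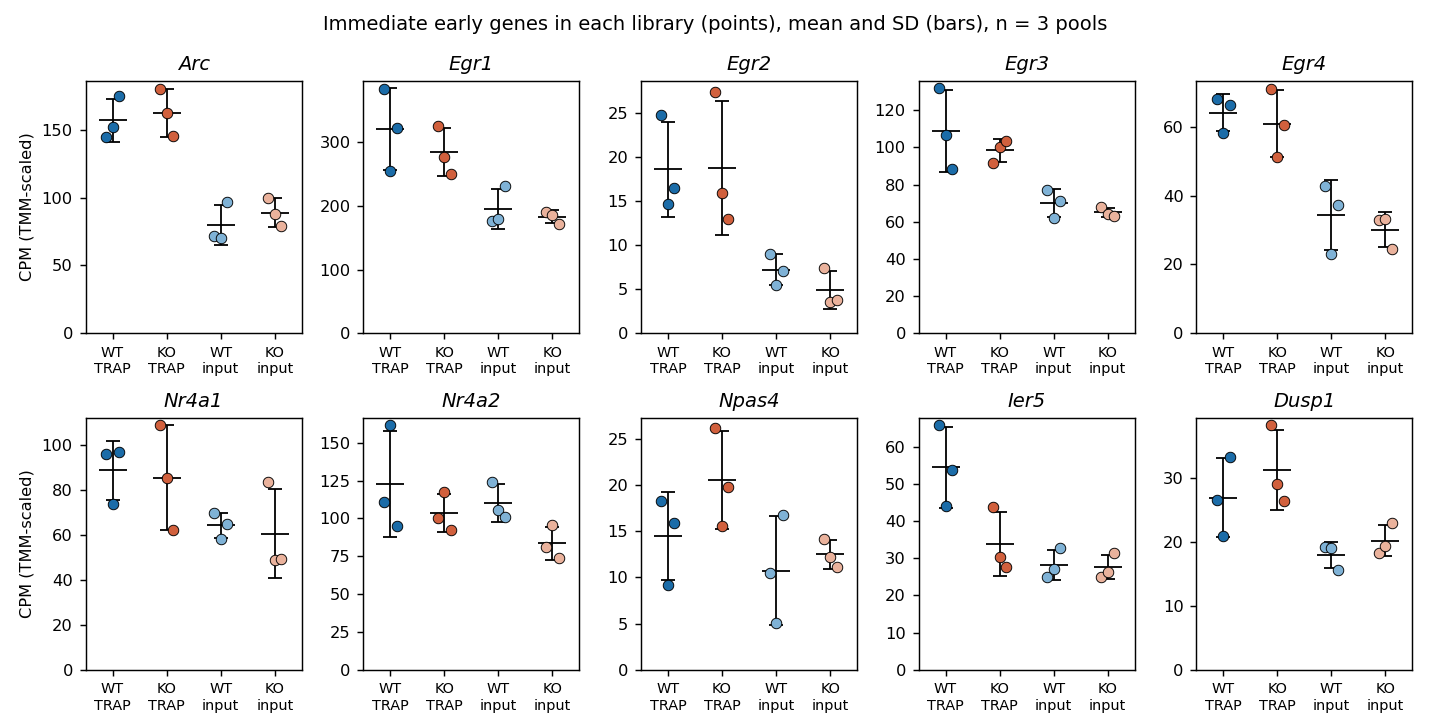
CPM (TMM-scaled, linear axis from 0) of the 10 genes in the 4 groups, TRAP on the left and input on the right of each panel. Each point is 1 library, and the bars are the mean and SD of 3 pools. The TRAP points of Arc, Egr1, Egr2, Egr3 and Egr4 lie above all input points, and the Ier5 points of KO TRAP (27.6 to 43.8 CPM) lie just below those of WT TRAP (44.0 to 65.8 CPM).

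The comparison of KO with WT in TRAP asks which mRNAs on tagged ribosomes differ between FosB fl/fl and non-floxed mice. None of the 10 genes passed the test in it, where 8 of the 11727 genes tested did (0.0682%). At an unadjusted p under 0.05 there was 1 member, Ier5, against 6.05% of all genes tested, and DESeq2 called no member. Of the 10, 3 had positive and 7 negative log2 fold changes (KO over WT), with a median of −0.07 against −0.002 over all genes tested. In these bulk samples, fewer cells of a type and less RNA per cell cannot be told apart. The 95% intervals show what differences the data leave possible, which for Arc, the narrowest, is 88.0% to 122% of the WT level, and for Egr2 and Npas4, the widest, 65.4% to 151% and 93.0% to 213%.

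Ier5 (ENSMUSG00000056708.4, chr1:156943497-156946766 on mm9, a gene of 1 exon) encodes a nuclear protein that binds the phosphatase PP2A and the heat shock factor HSF1. Its TRAP values were 65.8, 44.0 and 53.9 CPM for the WT pools against 43.8, 30.2 and 27.6 CPM for the KO pools. The groups did not overlap, but WT TRAP 2 and KO TRAP 2 were nearly level. Scaled by total counts alone, they did overlap, with KO up to 45.3 CPM and WT from 43.3 CPM. The log2 fold change was −0.70 (standard error 0.19), or 61.7% of the WT level with a 95% interval from 46.8% to 81.3%. It ranked 49 of 11727 genes by p and did not pass the test (adjusted p = 0.345 by edgeR, Benjamini-Hochberg, unadjusted 0.00148). Over the alternatives, pools left out included, the adjusted p ran from 0.0403 to 0.9995, and the value under 0.05 came from the fit with no filter on low counts. The log2 fold change ran from −0.92 without KO pool 2 to −0.53 without WT pool 1, and was −0.41 with the pool number as a block, which leaves 4 libraries. The exact permutation test, two-sided, gave p = 0.10, the smallest that 3 pools against 3 allow. The input values of Ier5 were 24.9, 27.2 and 32.8 CPM for WT against 25.1, 26.4 and 31.4 CPM for KO. The input groups overlapped throughout, with a log2 fold change of −0.04 (standard error 0.19). The difference of the KO effect between TRAP and input, tested as an interaction, was a log2 value of −0.66 with a standard error of 0.28 (adjusted p = 1.00 by edgeR, unadjusted 0.0282). With a pool left out it ran from −0.96 (without KO pool 2) to −0.45 (without WT pool 1) and −0.43 (without KO pool 4). Ier5 was the only member whose KO and WT TRAP libraries did not overlap, where 11.9% of all genes tested did not. Pan-neuronal markers also differed between the TRAP groups, with a summed level of 9718 to 10680 CPM in KO and 11230 to 11950 CPM in WT, 9 of 10 negative and Nefm lower past the test, and their part in the Ier5 values was not tested.

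Arc (ENSMUSG00000022602.7, chr15:74499513-74503000) encodes a protein of dendrites and synapses that takes part in the removal of AMPA receptors. Its TRAP values were 145, 152 and 175 CPM for the WT pools against 180, 163 and 145 CPM for the KO pools. The ranges nearly coincided, and the log2 fold change was 0.05 (standard error 0.11). The input values of Arc were 71.9, 70.5 and 96.9 CPM for WT against 100, 88.3 and 78.8 CPM for KO, again with overlap and a log2 fold change of 0.16 (standard error 0.15).

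The 4 EGR genes encode zinc finger factors that bind the same GC-rich site. Egr1 (ENSMUSG00000038418.6, chr18:35020861-35024638) had TRAP values of 385, 255 and 323 CPM for the WT pools against 326, 277 and 251 CPM for the KO pools. Egr3 (ENSMUSG00000033730.2, chr14:70477252-70479964) had TRAP values of 132, 107 and 88.2 CPM for WT against 91.5, 100 and 104 CPM for KO. WT TRAP 1 was the highest library for both, and the rest of WT lay within or close to the KO range. The log2 fold changes were −0.18 (standard error 0.14) and −0.15 (standard error 0.14). Egr4 (ENSMUSG00000071341.3, chr6:85461125-85463583) had TRAP values of 68.3, 58.3 and 66.4 CPM for WT against 71.1, 51.5 and 60.8 CPM for KO, with a log2 fold change of −0.08 (standard error 0.15). Egr2 (ENSMUSG00000037868.8, chr10:66998223-67004936) had TRAP values of 24.7, 14.6 and 16.5 CPM for WT against 27.3, 15.8 and 12.9 CPM for KO, with a log2 fold change of −0.01 (standard error 0.29). For Egr4 and Egr2 the KO values ran both above and below all WT values. In input, the EGR genes overlapped between genotypes, with log2 fold changes of −0.10 for Egr1, −0.10 for Egr3, −0.19 for Egr4 and −0.56 for Egr2. The Egr2 input value had a standard error of 0.42 and rested on 16 to 32 counts per library.

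Nr4a1 and Nr4a2 encode orphan nuclear receptors that bind DNA without a known ligand. Nr4a2 (ENSMUSG00000026826.5, chr2:56959241-56976414) was the other gene with separate genotype groups, but in input. Its input values were 124, 106 and 101 CPM for the WT pools against 81.2, 95.6 and 73.8 CPM for the KO pools. All KO values were below all WT values, also when scaled by total counts alone. The log2 fold change was −0.40 (standard error 0.14), or 76.0% of the WT level with a 95% interval from 62.1% to 93.0%. It did not pass the test (adjusted p = 1.00 by edgeR, 0.907 to 0.9999 over the alternatives, unadjusted 0.0104), and the exact permutation test, two-sided, gave p = 0.10. In input, 4 of 12816 genes passed the test (0.0312%), none of them a member, with 1 member, Nr4a2, at an unadjusted p under 0.05 (2.89% of all genes tested) and none called by DESeq2. Nr4a2 was also the only member whose input groups did not overlap, where 8.37% of all genes tested did not. The markers listed for dentate granule cells summed to 234 to 241 CPM in WT input and 252 to 350 CPM in KO input. All 6 tested markers were positive in KO and none passed the test. Among them Calb2 alone had a positive log2 ratio of TRAP to input (0.35), so the sum need not follow granule cells only. The part of these markers in the Nr4a2 values was not tested. The TRAP values of Nr4a2 were 111, 162 and 95.1 CPM for WT against 100, 117 and 92.6 CPM for KO. The TRAP groups overlapped, and the log2 fold change of −0.25 (standard error 0.17) came to 0.008 without WT pool 2.

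Nr4a1 (ENSMUSG00000023034.6, chr15:101097277-101105223) had TRAP values of 95.8, 73.6 and 97.0 CPM for the WT pools against 109, 85.3 and 62.0 CPM for the KO pools. Its log2 fold change was −0.06 (standard error 0.18) in TRAP and −0.08 (standard error 0.19) in input. KO pool 2 was the highest library in both kinds, at 109 CPM in TRAP and 83.5 CPM in input, where the other KO input libraries stood at 48.8 and 49.4 CPM.

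Npas4 (ENSMUSG00000045903.8, chr19:4984355-4989971) encodes a neuronal bHLH-PAS factor that responds to calcium entry. Its TRAP values were 18.3, 9.17 and 15.9 CPM for the WT pools against 26.2, 15.6 and 19.8 CPM for the KO pools. The log2 fold change was 0.49 (standard error 0.29), and with a pool left out it ran from 0.26 (without WT pool 2) and 0.29 (without KO pool 2) to 0.71 (without WT pool 1). KO TRAP 3 lay below 2 of the WT libraries, and the test was not passed (adjusted p = 0.863, edgeR). The input values were 10.4, 5.04 and 16.7 CPM for WT against 14.2, 12.2 and 11.1 CPM for KO. The WT input spread, a coefficient of variation of 54.5%, was the widest of any member in any group.

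Dusp1 (ENSMUSG00000024190.6, chr17:26642535-26645464) encodes a nuclear phosphatase that inactivates MAP kinases. Its TRAP values were 26.5, 20.9 and 33.2 CPM for the WT pools against 38.2, 29.0 and 26.4 CPM for the KO pools. The groups overlapped in TRAP and in input, and the log2 fold changes were 0.21 (standard error 0.22) and 0.17 (standard error 0.22). With a pool left out they ran from 0.0493 (without KO pool 2) to 0.39 (without WT pool 3) in TRAP, and from 0.0674 (without KO pool 4) to 0.24 in input.

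**Figure D2:**
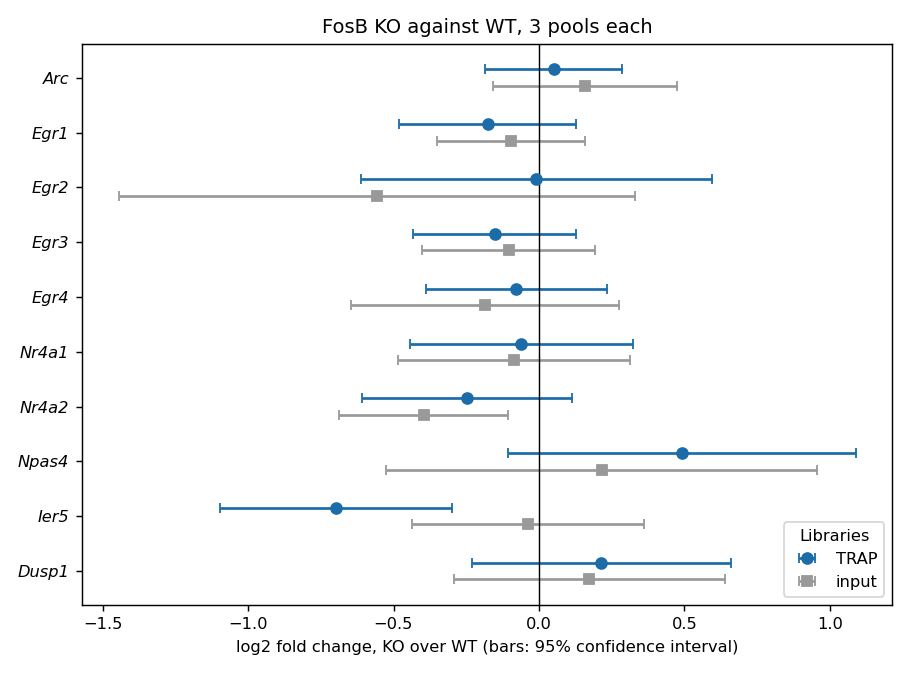
Log2 fold change of KO over WT for each gene, in TRAP (circles) and input (squares), with 95% confidence intervals from the edgeR fits of 3 pools against 3. The interval lies wholly below 0 for Ier5 in TRAP (−1.10 to −0.30) and for Nr4a2 in input (−0.69 to −0.10), and neither passed the test after adjustment.

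The comparison of TRAP with input asks which mRNAs were richer on the tagged ribosomes than in the whole tissue. Of the 10 genes, 8 were higher in TRAP past the test, where 2596 of 13214 genes were (19.6%), and none was lower. All 10 log2 ratios were positive, with a median of 0.62 against −0.01 over all genes tested. Egr2 was 3.17-fold higher (95% interval 2.22 to 4.52), Egr4 1.94-fold (1.60 to 2.36), Arc 1.89-fold (1.65 to 2.17) and Egr1 1.59-fold (1.39 to 1.83). Egr3, Ier5 and Dusp1 were 1.54-, 1.53- and 1.52-fold higher, and Nr4a1 was 1.39-fold higher. The adjusted p ran from 1.51e-08 for Arc to 0.0152 for Nr4a1 by edgeR. Without KO pool 3, WT pool 1 or WT pool 3, Nr4a1 no longer passed, with an adjusted p of up to 0.0671.

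Npas4, at a log2 ratio of 0.57 (standard error 0.24, adjusted p = 0.0569 by edgeR), and Nr4a2, at 0.23 (standard error 0.11, adjusted p = 0.106), did not pass. The Nr4a2 ratio ran from 0.0930 without WT pool 2 to 0.33 without WT pool 1. With the pool as a block, which pairs the libraries of the same mice, Npas4 passed with a log2 ratio of 0.59 (adjusted p = 0.0185). Npas4 also passed when scaled by total counts alone, with no filter on low counts or without WT pool 3, and Nr4a2 passed with no filter or without WT pool 1 (adjusted p from 0.0410 to 0.536 over all alternatives and pools left out).

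Within pools, TRAP was above input in 56 of the 60 pairs of a gene and a pool. Arc, the 4 EGR genes, Nr4a1 and Dusp1 were above input in 6 of 6 pools, as were 18.3% of all genes tested (exact sign-flip permutation test for each, two-sided, p = 0.03125, the smallest that 6 pools allow). Arc had the steadiest ratio, between 0.85 and 1.10 on the log2 scale in the 6 pools. Npas4 was below input in WT pool 3 (−0.07), Ier5 in KO pool 4 (−0.18), and Nr4a2 in WT pools 1 and 3 (−0.16 and −0.08).

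The ratio did not differ between genotypes past the test for any of the 10 genes, where 1 of 13214 genes did (0.00757%). Ier5 was the only member at an unadjusted p under 0.05, as were 2.71% of all genes tested, and DESeq2 called no member. The log2 ratio of Ier5 was 1.38, 0.68 and 0.71 in WT pools 1, 2 and 3, and 0.79, 0.19 and −0.18 in KO pools 2, 3 and 4. These overlapped between genotypes, since KO pool 2 was above WT pools 2 and 3. The log2 ratio of Egr2 was 1.41, 1.33 and 1.17 in WT pools and 1.83, 2.01 and 1.68 in KO pools. These did not overlap, as for 8.61% of all genes tested and for no other member, and the interaction of 0.55 had a standard error of 0.50 and an adjusted p of 1.00 (edgeR).

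**Figure D3:**
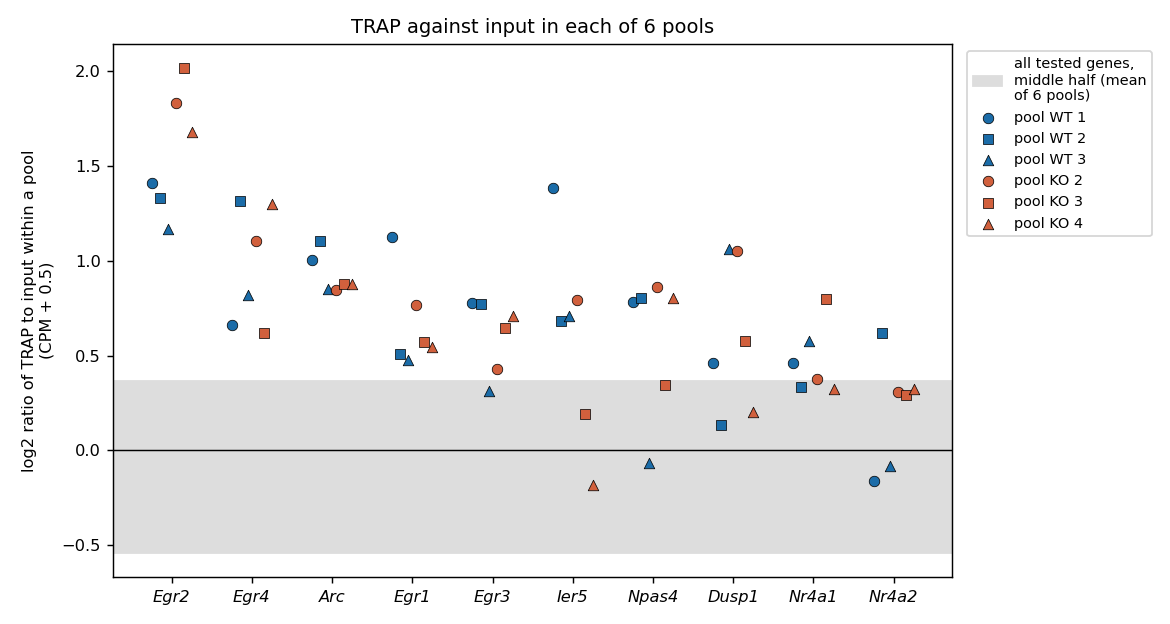
Log2 ratio of TRAP to input of each gene within each of the 6 pools (log2 of CPM + 0.5), with WT pools in blue and KO pools in orange, genes in order of their mean. The grey band is the interquartile range over all 13214 tested genes, averaged over pools. Of the 60 points, 56 lie above 0, with Egr2 highest by its mean (range 1.17 to 2.01) and Nr4a2 lowest by its mean (−0.16 to 0.62), while the lowest single point is Ier5 in KO pool 4 (−0.18).

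Markers of cell types also differed between TRAP and input, and their part in the members' ratios was not tested. Of 10 pan-neuronal markers, 8 were higher in TRAP and none lower, with a median log2 ratio of 0.54, and 4 of 8 markers of glutamate neurons were higher (median 0.23). Markers of GABA neurons were lower for 9 of 11 (median −1.66), those of dentate granule cells for 4 of 6 (−1.31) and those of CA1 and subiculum higher for 2 and lower for 2 of 7 (0.21). All 10 tested markers each of astrocytes (median −2.71), oligodendrocytes (−3.56) and microglia (−3.54) were lower, as were 4 of 5 endothelial and mural markers (−1.51) and 2 of 4 of choroid plexus and ependyma (−1.87). Glial RNA was reduced but not gone. The 10 astrocyte markers summed to 345 to 439 CPM in TRAP and 2080 to 2550 CPM in input, the oligodendrocyte markers to 159 to 206 and 725 to 1145 CPM, and the microglial markers to 8.23 to 18.0 and 89.0 to 171 CPM. The GABA neuron markers summed to 208 to 662 CPM in TRAP and 826 to 970 CPM in input. Over the WT TRAP libraries together, 3 of these markers had 0 counts, 2 endothelial or mural and 1 of choroid plexus or ependyma, and over the KO TRAP libraries 3 had, 2 endothelial or mural and 1 microglial.

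Genes of the same pathway were read from 5 lists, beside shares of 19.6% higher and 22.5% lower in TRAP over all genes tested. Of 40 other rapid immediate early genes tested, 14 were higher and 5 lower in TRAP (median log2 ratio 0.24). The kinase gene Plk2 (0.71), the third NR4A receptor gene Nr4a3 (0.74) and Bhlhe40 (0.80), a bHLH repressor gene, had the smallest p among those higher. Spry2 (−0.72) and Spry4 (−0.94), inhibitors of receptor tyrosine kinase signalling, and Btg1 (−0.56) had it among those lower. All 6 AP-1 genes tested were higher (median 0.58), led by Junb (1.12), Jun (0.59) and Fos (0.73). Of 16 genes of the later response, 4 were higher and 4 lower (median 0.10). Vgf (0.77), a precursor of secreted peptides, and the pentraxin genes Nptx2 (0.86) and Nptx1 (0.32) were higher, and Npy (−0.85) and Cort (−1.68), peptides of GABA neurons, and Igf1 (−2.92) were lower.

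Upstream of the members, 16 of 41 signalling genes tested were higher and 11 lower (median 0.11). Crtc1 (0.85), a coactivator of CREB, Grin1 (0.76), the obligatory NMDA receptor subunit, and Map2k1 (0.50), which encodes MEK1, were higher. Crebbp (−0.60) and Ep300 (−0.55), acetyltransferases that CREB recruits, and Elk4 (−0.89), a partner of SRF, were lower. Of 17 partners of the members' products, 8 were higher and 4 lower (median 0.19). The NAB proteins, which bind EGR factors and repress their action, went apart, with Nab2 higher (0.86) and Nab1 lower (−0.70). Rxrb (0.64), a partner of NR4A receptors, and Ppp2r2b (0.29), a PP2A subunit, were higher. The endocytic genes whose families Arc binds also went apart, with Dnm2 (−0.82) and the endophilin gene Sh3gl3 (−0.35) lower and the endophilin gene Sh3gl1 (0.42) higher.

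Between KO and WT, no gene of these 5 lists passed edgeR's test in TRAP, in input or in the interaction, and DESeq2 called 1 of them, Npy in TRAP. At an unadjusted p under 0.05 in TRAP there were 4 of 38 rapid genes (Dusp4, Spry2, Gadd45g and Homer1), 1 of 6 AP-1 genes (Fosb), 2 of 12 later genes (Npy and Nptx2), none of 40 signalling genes and 1 of 17 partners (Rxrb). In input there were 1 of 40 rapid genes (Plk3), Fosb and 1 of 15 later genes (Scg2), and in the interaction 1 of 40 rapid and 2 of 16 later genes. Over all genes tested, the share at this unadjusted p was 6.05% in TRAP, 2.89% in input and 2.71% in the interaction. Dusp4, a phosphatase gene related to Dusp1, came to −1.06 on the log2 scale (SE 0.29), with an adjusted p of 0.345 by edgeR. Over the list medians, the values in TRAP were −0.05 for the rapid genes, 0.03 for AP-1, −0.14 for the later genes, 0.01 for signalling and −0.05 for partners, against −0.002 over all genes.

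The members also varied within groups, by pool. KO TRAP 2 was the highest of the 3 KO TRAP libraries for 8 of the 10 genes, with a mean deviation from the group mean of 0.25 on the log2 scale, and KO TRAP 4 was the lowest for 7 (−0.18). In WT TRAP, library 1 was the highest for 6 genes (0.17) and library 2 the lowest for 7 (−0.18). The order was partly the same in input, where KO input 2 was the highest for 6 genes (0.14), KO input 4 the lowest for 6 (−0.11), and WT input 2 the lowest for 6 (−0.23). The median deviation of all genes was within 0.014 of 0 in every library. Nr4a2 went another way, since WT TRAP 2 was its highest library, and Egr3 was at its lowest among KO TRAP libraries in KO TRAP 2. The summed GABA neuron markers stood at 662 CPM in KO TRAP 2, 208 and 210 CPM in KO TRAP 3 and 4, and 468, 334 and 296 CPM in WT TRAP 1, 2 and 3, and their part in these deviations was not tested.

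**Figure D4:**
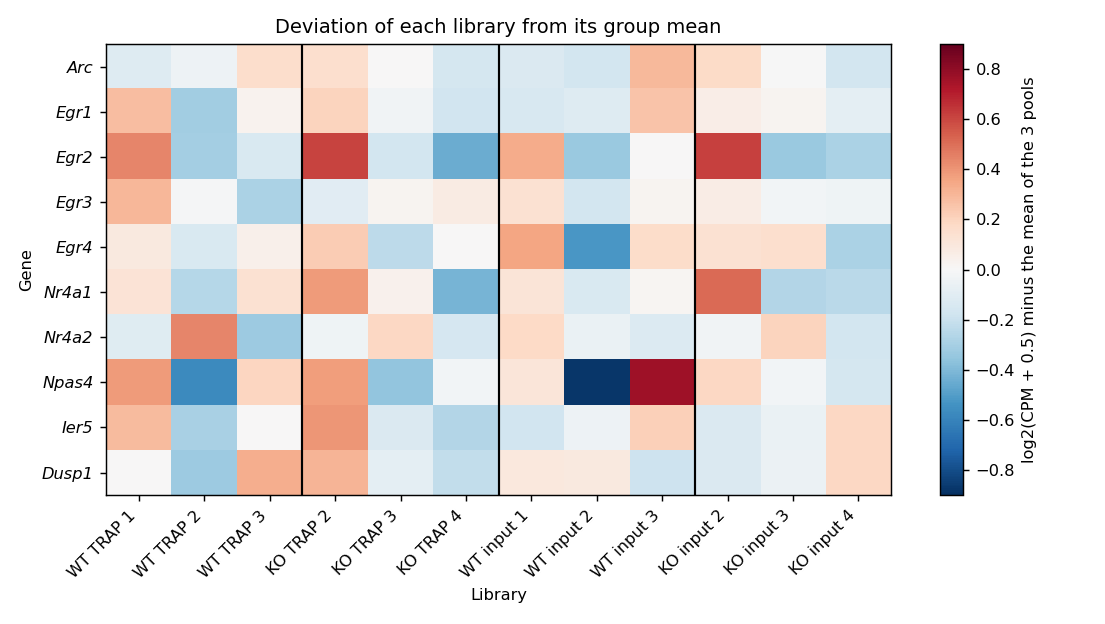
Deviation of each library from the mean of its group, in log2(CPM + 0.5), for the 10 genes (rows) and 12 libraries (columns, groups parted by black lines), red above and blue below the mean. KO TRAP 2 is above its group mean for most genes (mean 0.25) and WT TRAP 2 and WT input 2 below for most (−0.18 and −0.23), with Nr4a2 in WT TRAP 2 (0.44) as an exception.

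Over the 12 libraries, each centred on its group mean, the genes whose pattern was most like the mean of the 10 were Ighg2c (Pearson r = 0.956), Irak4 (0.945), Vgf (0.937), Hdac11 (0.932) and Zbtb39 (0.929), of 13204 genes. The points share pools, since TRAP and input came from the same mice, and the values are a description without a test. Among the rapid and AP-1 genes, Fosb (0.81, rank 95), Per1 (0.80, rank 111) and Fos (0.78, rank 154) came first, while Jun (−0.64) and Plk2 (−0.83) ran the other way.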

How the data were processed

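TRAP-Seq and input libraries were sequenced from the 12 samples described above, and a label without the word input was read as TRAP. The authors mapped reads to mm9 with TopHat, assigned them to the genes of Gencode vM1 with HTSeq-count, and deposited raw counts, 1 table per library. Versions and the strand setting are not given in the sources used here. The authors named DESeq2 for differential expression, and a t-test for the p-values in their list of top target genes. Rows that name no gene were left out of library sizes. Of the reads counted by HTSeq-count with 1 place in the genome, 20.6% to 27.1% overlapped no gene, and 2.11% to 2.56% were left uncounted because they overlapped more than 1 gene.

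Counts were fitted in R 4.3.3 with edgeR 4.0.16 (filterByExpr, TMM, robust quasi-likelihood test), with Benjamini-Hochberg adjustment over all genes tested and a threshold of 0.05. KO and WT were compared in fits of 6 libraries, and TRAP against input and the interaction in a fit of 12. Steps were tested on simulated data. Exact permutation and sign-flip tests used log2(CPM + 0.5). Lengths are unions of exons. Stretches of exons were aligned with minimap2 2.31. The alternatives were RLE, total counts, no filter, a mean of 10 counts, no mitochondrial genome genes, DESeq2 1.42.0, a fit of all 12 libraries, a block and leaving out pools. TRAP and input libraries of a pool come from the same mice. Their deviations correlated at 0.0582 to 0.106 across genes, against −0.101 to −0.00538 between pools. The genes, lists and motifs were chosen with earlier results of these data known. All 10 genes are named, of each list up to 3 genes per direction that passed the test, by smallest p, and the 5 genes most alike in pattern. Genes named between KO and WT at an unadjusted p under 0.05, the rapid and AP-1 genes in the likeness, and Sh3gl1 were chosen after their values were seen. P-values of the fits of 6 libraries and of the exact tests measure the spread between pools. The fit of 12, unless blocked by pool, treats TRAP and input of a pool as independent. Its p-values measure the spread between libraries within groups.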

Additional observations from a re-analysis of the deposited data

How the results depend on the processing

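The TRAP to input direction of all 10 genes held under every alternative and with each pool left out, and 7 to 10 of them passed the test. Between KO and WT in TRAP, 8 genes of all tested passed in the reported fit, 41 without a filter, 18 with DESeq2, 1 with the replicate block and 5 to 20 with a pool left out. Members that passed there were 0, except 1 without a filter (Ier5). In input, 4 genes passed in the reported fit, 19 without a filter, 8 with DESeq2, 9 with the block, 7 in the fit of 12 libraries and 1 to 5 with a pool left out. For the interaction, 1 gene passed, and 0 to 1 with a pool left out.

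Among log2 fold changes of KO over WT that did not pass, Egr2 in TRAP turned to 0.0238 with total counts alone. With the block on pool numbers, which stand for different mice in KO and WT and leave numbers 2 and 3 only, Egr1, Egr2 and Nr4a1 turned to 0.0705, 0.4404 and 0.1937 in TRAP, and Egr4 and Nr4a1 to 0.1611 and 0.0693 in input, while Nr4a2 in input came to −0.22. Deviations of same-numbered WT and KO libraries correlated at −0.0697 to 0.00294. With a pool left out, TRAP values ran from −0.31 to −0.0196 for Egr1, −0.0264 to 0.14 for Arc, −0.38 to 0.27 for Egr2, −0.28 to 0.0159 for Egr3, −0.20 to 0.0399 for Egr4, −0.27 to 0.13 for Nr4a1 and −0.39 to 0.0084 for Nr4a2. Input values ran from −0.16 to 0.0428 for Egr1, −0.41 to 0.0004 for Egr4, −0.38 to 0.0494 for Nr4a1, −0.13 to 0.71 for Npas4 and −0.14 to 0.0810 for Ier5, and without a change of sign from 0.0720 to 0.32 for Arc, −0.97 to −0.37 for Egr2 and −0.18 to −0.0277 for Egr3. Interaction values ran from −0.21 to 0.11 for Egr1, −0.19 to 0.0194 for Egr3, −0.0590 to 0.29 for Egr4, −0.12 to 0.10 for Nr4a1, −0.0505 to 0.43 for Nr4a2, −0.15 to 0.48 for Npas4 and −0.21 to 0.31 for Dusp1, and without a change of sign from −0.19 to −0.0407 for Arc and −0.96 to −0.43 for Ier5. The cause was not tested.

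Levels per kb rest on the exon length, and those of Nr4a2 and Dusp1 moved by more than 1 SD in some groups with the longest transcript in its place. Egr2 and Npas4, with 16 to 32 and 22 to 76 counts per input library, had the widest intervals between genotypes in input.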
